A study of Homo sapiens with 7 samples.

Results

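The genes examined here are 10 genes of serine synthesis and of folate one-carbon metabolism, out of 62238 genes counted by RNA-seq. They were chosen by symbol and matched to the Ensembl identifiers of the counts. PHGDH, PSAT1 and PSPH make serine. SHMT2, MTHFD2, MTHFD1L and ALDH1L2 act on folates in mitochondria, SHMT1 and MTHFD1 act in the cytosol, and SLC19A1 is the reduced folate carrier of the cell surface. RNA-seq was performed on MEG-01, an established line of human megakaryoblastic leukemia cells, with 1 control library without knockdown and 2 libraries of stable lines in which RBM15, an RNA-binding protein, was knocked down with different lentiviral shRNAs. RIP-seq, which sequences RNA recovered with an antibody, was performed on the same cell line with 2 libraries labelled normal IgG and 2 labelled RBM15 antibody. All libraries carry the label of lentiviral transgenes, the cells were at passage 5 in exponential growth, and the knockdown lines were stable lines selected with puromycin. Nothing in the labels ties the control culture to a separate replicate culture, so no spread between controls enters the p-values. They rest on the spread between the 2 knockdown lines, which edgeR moderates with the spread pooled over all genes tested.

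The shRNA targets are shown because they separate the knockdown lines from each other.

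shRBM15#1: gcggaatacaagactctgaa

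shRBM15#2: ccaatggttatgccattctt

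The first lies at base 1399 and the second at base 3461 of the longest RBM15 transcript, which is 4129 bases long. Each was found in 9 RBM15 transcripts and in transcripts of no other gene, and neither was found in a transcript of the 10 metabolic genes. The match was of the whole 20 bases, and shorter matches were not looked for. RBM15 itself had 80.2 CPM, that is, reads scaled to a common library size with TMM factors, in the control, 43.7 in the shRBM15#1 line and 40.7 in the shRBM15#2 line. Both lines were therefore below the control, by a log2 fold change of -0.93 ± 0.23 (SE) with an adjusted p of 0.0908 in edgeR, which did not pass the threshold.

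As background, cells make serine from the glycolytic intermediate phosphoglycerate in sequential steps that PHGDH, PSAT1 and PSPH catalyse. Serine hydroxymethyltransferase then moves a carbon of serine onto tetrahydrofolate and leaves glycine. In mitochondria the carbon is oxidised to formate, which leaves for the cytosol, where MTHFD1 uses it to rebuild the folates needed for purines, thymidylate and methionine.

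Counts on exon bins summed to 53230029 in the control, 41629454 in shRBM15#1 and 52458857 in shRBM15#2. A read that overlaps several bins is counted in each. These sums, and the reads given below for a gene, can therefore exceed the number of reads. Reads that named no gene made up 23.2%, 32.0% and 23.5% of the bin counts and themselves together. Their share of all reads can be higher and was not computed. Of 10 megakaryocytic and erythroid markers, 7 were above 1 CPM in every library, among them ITGA2B, GATA1 and TAL1, while PF4 and GP9 were among those below it. Of 8 markers of other blood cells, 2, 4 and 3 were above 1 CPM, with summed levels of 133, 34.4 and 65.7 CPM. Their part in the results was not tested. In such bulk samples fewer cells of a type and less RNA per cell cannot be told apart.

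The first question was how far each gene's level differed between the knockdown lines and the control. PHGDH and ALDH1L2 fell at the study's limit for genes, an adjusted p under 0.01 in edgeR's quasi-likelihood test. PSAT1, SHMT2 and MTHFD1L were lower at an adjusted p under 0.05. The other 5 genes did not pass either limit, and none was called higher, as 0.0683% of all genes tested were at 0.01 and 0.534% at 0.05. Thus 2 of 10 genes were called lower at 0.01, where 0.277% of the 24887 genes tested were, and 5 of 10 at 0.05, where 1.2% were. For calls in either direction these shares were 0.346% and 1.74% of all genes tested. In 9 of 10 genes both knockdown lines lay below the control. The same held for 9799 of the 24887 genes tested and for 4802 of the 9209 genes with a symbol and a mean of at least 10 CPM. The median log2 fold change was -1.05 over the 10 genes, 0.02 over all genes tested and -0.14 over the 9209 genes with a symbol and a mean of at least 10 CPM. All 10 genes exceeded that mean, ALDH1L2 only through its level in the control.

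**Figure D1:**
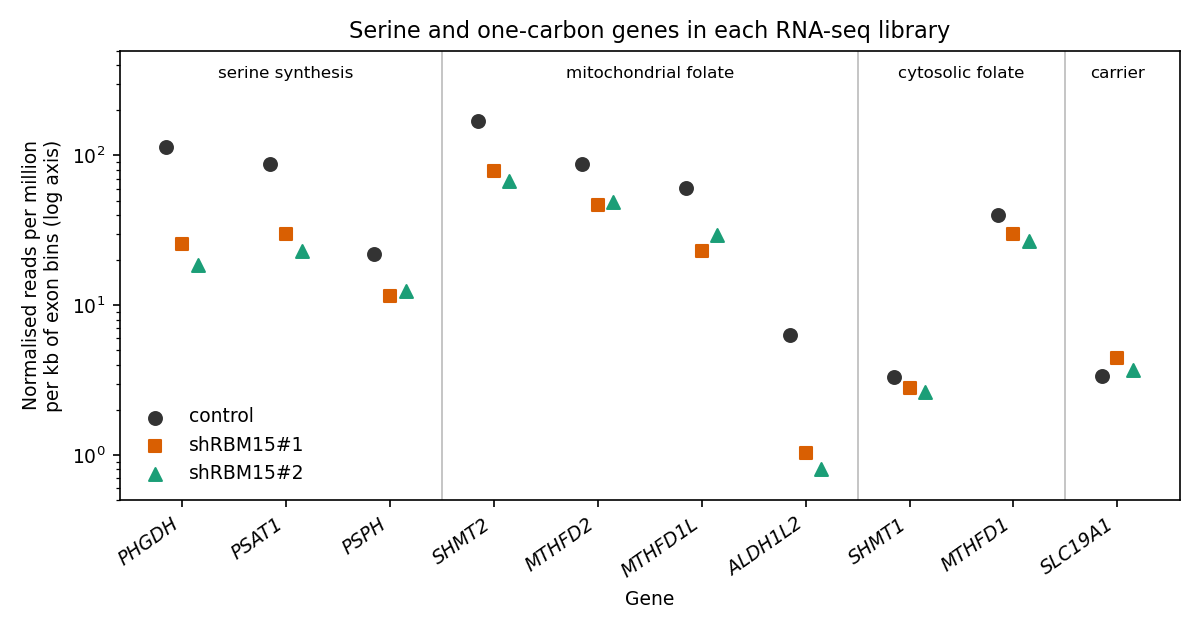
Level of each of the 10 genes in each library, as normalised CPM per kb of exon bins on a log axis. Each point is 1 library, so no error is drawn. The control lies above both knockdown lines for every gene except SLC19A1, and the widest gap by ratio is that of ALDH1L2, from 6.32 to 1.03 and 0.812.

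PHGDH, the dehydrogenase of the first step of serine synthesis (ENSG00000092621, chr1:120202421-120286838, plus strand, GRCh37), had 31639 reads in the control, 6417 in the shRBM15#1 line and 5434 in the shRBM15#2 line. These are 639, 143 and 104 CPM, so that 22.4% and 16.3% of the control level remained in the lines. The log2 fold change was -2.37 ± 0.25 with an adjusted p of 0.00452 in edgeR, and PHGDH ranked 39 from the lowest among the 9209 genes with a symbol and a mean of at least 10 CPM.

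PSAT1, the aminotransferase of the second step (ENSG00000135069, chr9:80912059-80945009, plus strand), had 193 CPM in the control, 65.8 in the shRBM15#1 line and 50.1 in the shRBM15#2 line. Its log2 fold change was -1.74 ± 0.24 (edgeR adjusted p = 0.0128). PSPH, the phosphatase that releases serine (ENSG00000146733, chr7:56078744-56119297, minus strand), had 61.1, 31.7 and 34.2 CPM. Both lines were near each other and below the control, with a log2 fold change of -0.89 ± 0.23 and an edgeR adjusted p of 0.107, which did not pass. Within this short pathway the fold change thus ran from -2.37 at the first enzyme to -0.89 at the last. The differences between the 3 genes were not tested.

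The genome holds 4 annotated pseudogenes of PSAT1, 1 of PSPH and 7 of MTHFD2, as well as 1 each of SHMT1 and MTHFD1. How the counting treated reads that fit several places is not stated in the sources used, so levels of these 5 genes are less certain.

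Among the mitochondrial folate genes, ALDH1L2, which oxidises formyl-tetrahydrofolate and yields NADPH (ENSG00000136010, chr12:105413568-105478355, minus strand), had 2659 reads in the control, 393 in the shRBM15#1 line and 360 in the shRBM15#2 line. These are 53.7, 8.78 and 6.90 CPM, the lowest remaining shares of the 10 genes at 16.3% and 12.8%. The log2 fold change was -2.78 ± 0.27 (edgeR adjusted p = 0.00324). ALDH1L2 ranked 20 of the 9209, but it reached their mean of 10 CPM only through the control, as both lines lay below 10. The rank is thus a description and no further evidence of the fall.

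SHMT2, the mitochondrial serine hydroxymethyltransferase (ENSG00000182199, chr12:57623110-57628718, plus strand), had 821 CPM in the control, 383 in the shRBM15#1 line and 328 in the shRBM15#2 line. The log2 fold change was -1.21 ± 0.22 with an edgeR adjusted p of 0.0345. MTHFD1L, which releases formate in mitochondria (ENSG00000120254, chr6:151186685-151423023, plus strand), had 298, 114 and 145 CPM. Unlike for SHMT2, the lower level was that of shRBM15#1, and the log2 fold change was -1.20 ± 0.23 (edgeR adjusted p = 0.0438).

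MTHFD2, the mitochondrial methylene-tetrahydrofolate dehydrogenase (ENSG00000065911, chr2:74425689-74444692, plus strand), had 424 CPM in the control, 227 in the shRBM15#1 line and 239 in the shRBM15#2 line. The log2 fold change of -0.86 ± 0.21 did not pass (edgeR adjusted p = 0.0953). The lines differed from each other far less than either differed from the control, but the size of the difference was the smallest of the 4 mitochondrial genes.

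The cytosolic enzymes differed less in size and did not pass. SHMT1, the cytosolic serine hydroxymethyltransferase (ENSG00000176974, chr17:18231187-18266856, minus strand), had 23.1 CPM in the control, 19.6 in the shRBM15#1 line and 18.3 in the shRBM15#2 line, a log2 fold change of -0.28 ± 0.27 (edgeR adjusted p = 0.609). MTHFD1, the trifunctional cytosolic enzyme (ENSG00000100714, chr14:64854749-64926725, plus strand), had 239, 177 and 159 CPM, a log2 fold change of -0.51 ± 0.22 (edgeR adjusted p = 0.26). SLC19A1, which brings reduced folates and antifolates such as methotrexate into the cell (ENSG00000173638, chr21:46913486-46964325, minus strand), was the 1 gene with a positive value. It had 1677, 1999 and 1928 reads, which is 33.9 CPM in the control and 132% and 109% of that in the lines, a log2 fold change of 0.27 ± 0.26 (edgeR adjusted p = 0.618).

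**Figure D2:**
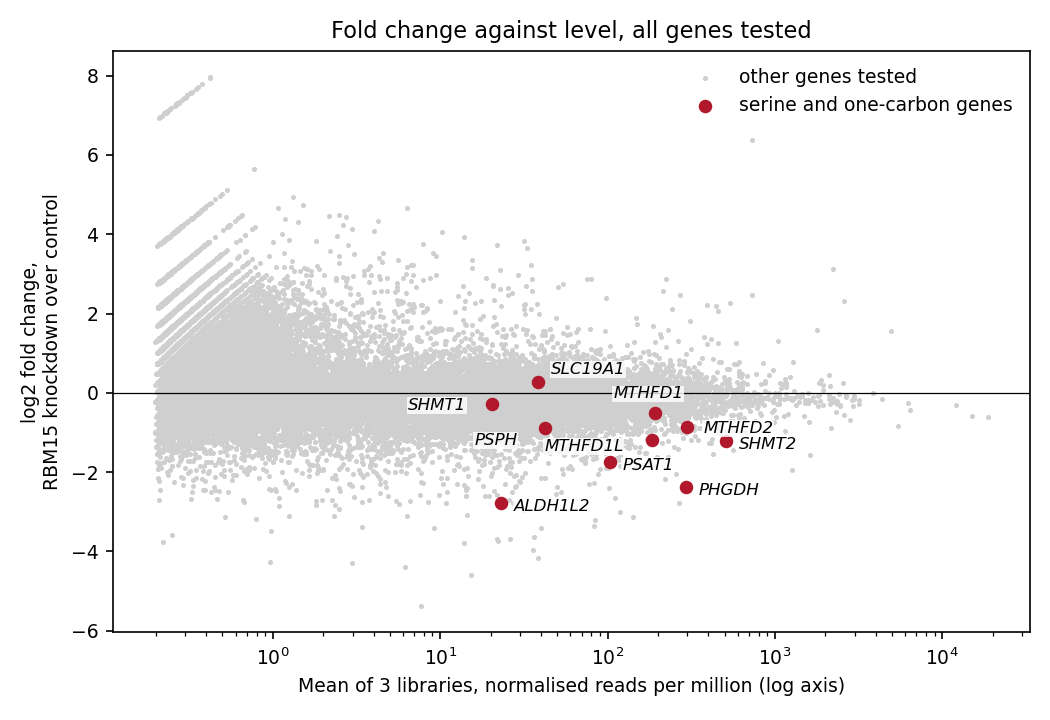
Log2 fold change of RBM15 knockdown over control against the mean level of the 3 libraries (CPM, log axis) for the 24887 genes tested, each point 1 gene. The 10 serine and one-carbon genes are in red, and ALDH1L2 at -2.78 and PHGDH at -2.37 lie at the lower edge of the genes of like level.

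By compartment, the median log2 fold change was -1.74 for the 3 serine synthesis genes, -1.20 for the 4 mitochondrial genes and -0.40 for the 2 cytosolic genes. These groups are too small for more than their values. Set per length, the mitochondrial SHMT2 was 51.3 times the level of the cytosolic SHMT1 in the control, 28.2 times with shRBM15#1 and 25.8 times with shRBM15#2. The ratio of MTHFD1L to MTHFD1, which share the formate-tetrahydrofolate ligase step, went from 1.49 in the control to 0.771 and 1.10. The ratio of MTHFD2 to MTHFD1 went from 2.16 to 1.57 and 1.83. All 3 ratios were thus lower in both lines than in the control, and none of these differences was tested. The size of a ratio between 2 genes also depends on how their exons are cut, since a read over several bins is counted in each. SHMT2 is cut into 87 bins and SHMT1 into 30, so 51.3 is not a ratio of transcript numbers.

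The order of the levels per kb also differed. In the control it ran SHMT2, PHGDH, PSAT1, MTHFD2, MTHFD1L, MTHFD1, PSPH, ALDH1L2, SLC19A1 and SHMT1. In both knockdown lines SHMT2 (79.1 and 67.8 CPM per kb) and MTHFD2 (46.7 and 49.1) stood first and ALDH1L2 (1.03 and 0.812) last. Between them, MTHFD1, PSAT1, MTHFD1L and PHGDH lay between 18.5 and 30.1 CPM per kb, and their values in the 2 lines overlapped except between MTHFD1 and PHGDH. PSPH (11.5 and 12.4), SLC19A1 (4.47 and 3.70) and SHMT1 (2.80 and 2.62) followed without overlap. The control has 1 library, so its own order carries no error. In every library the order also depends on how each gene is cut into bins, as the ratios do.

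The counts have no strand, so strand does not tell reads of overlapping genes apart. Reads labelled ambiguous, which name no gene, numbered 1063776 (control), 1010987 (shRBM15#1) and 1105337 (shRBM15#2). Bins 044 to 046 of MTHFD1 and bins 006 to 009 of SLC19A1 held 0 reads in every library. Whether shared reads were left out of the overlapped genes or counted in them was not tested. Other protein-coding genes overlap SHMT2 (NDUFA4L2), MTHFD2 (SLC4A5 and a readthrough gene), ALDH1L2 (NOPCHAP1), SHMT1 (SMCR8), MTHFD1 (ZBTB25) and SLC19A1 (COL18A1). No such gene overlaps PHGDH, PSAT1, PSPH or MTHFD1L.

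Around these genes, a list of 42 other genes of serine, glycine, folate and methionine metabolism was examined. All 42 were tested, 2 were called lower at an edgeR adjusted p under 0.01 and 3 at 0.05, beside 0.277% and 1.2% of all genes tested, and none was called higher. The median log2 fold change was -0.09 over the 42 genes. It was -0.25 over the 22 with a mean of at least 10 CPM, of which 17 had a negative value, and 1.42 over the 12 with a control level under 1 CPM. Of the 9209 genes with a symbol and a mean of at least 10 CPM, 62.6% had a negative value. SLC1A4, a carrier of serine and other neutral amino acids, fell from 52.3 CPM in the control to 9.02 in the shRBM15#1 line and 12.2 in the shRBM15#2 line, a log2 fold change of -2.30 ± 0.28 (edgeR adjusted p = 0.00762). CTH, the cystathionine lyase that makes cysteine, fell from 177 to 45.1 and 47.8 CPM, by -1.93 ± 0.22 on the log2 scale (edgeR adjusted p = 0.00552). CBS, which joins serine to homocysteine in the step before CTH, was lower at the wider limit, with 659, 282 and 267 CPM and a log2 fold change of -1.26 ± 0.21 (edgeR adjusted p = 0.0256). The study's own functional terms for these libraries name PHGDH, PSAT1, SHMT2, CBS and CTH, so the direction of these genes is no independent evidence.

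None of the folate genes outside the 10 passed either limit. TYMS, the thymidylate synthase, had 37.5 CPM in the control, 20.6 in the shRBM15#1 line and 21.1 in the shRBM15#2 line, with a log2 fold change of -0.85 and an edgeR adjusted p of 0.138. The lines gave values on either side of the control for MTHFD2L, a homologue of MTHFD2, with 65.8, 45.9 and 73.2 CPM.

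In purine synthesis, which uses folate carbon, GART had 746, 570 and 614 CPM and ATIC 100, 68.6 and 66.5 CPM, both below the control in each line without passing (edgeR adjusted p of 0.445 and 0.222). The mitochondrial folate carrier SLC25A32 had 49.5 CPM in the control and stood at 118% and 121% of it in the lines. ALDH1L1, the cytosolic counterpart of ALDH1L2, had 16, 71 and 29 reads, and the proton-coupled folate carrier SLC46A1 had 3, 23 and 6 reads. Such low counts lay above the control more often than not in these libraries. The 12 list genes under 1 CPM in the control, with 3 to 28 reads there, were higher in 12 of 12 cases with shRBM15#1 and in 11 of 12 with shRBM15#2. Of the 9940 genes tested with a control level under 1 CPM, 76.0% were higher with shRBM15#1 and 65.5% with shRBM15#2.

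**Figure D3:**
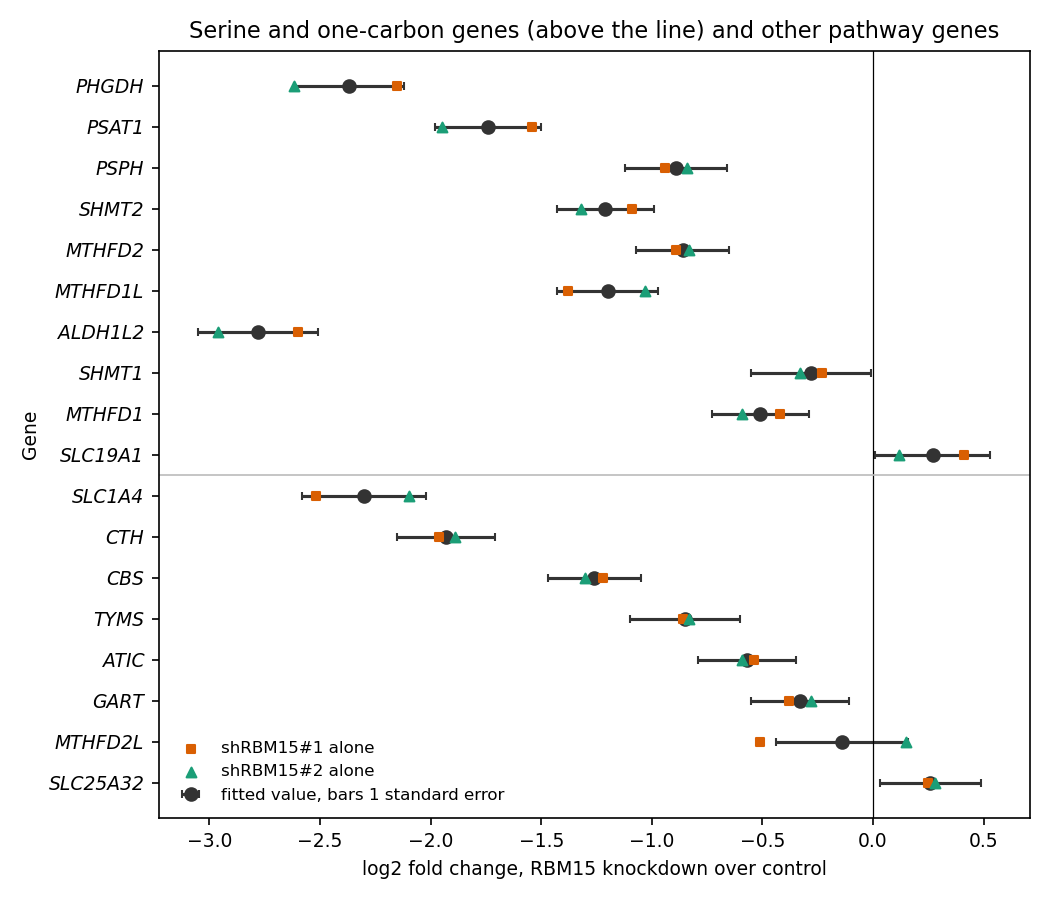
Log2 fold change of RBM15 knockdown over control for the 10 genes and for 8 named genes of the surrounding pathways. Circles are the fitted values with bars of 1 SE, squares and triangles each line alone against the control. PHGDH, ALDH1L2, SLC1A4 and CTH lie at -1.93 or lower, and the folate genes below the dividing line lie between -0.85 and 0.26.

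ATF4, a transcription factor known to induce PHGDH, PSAT1, SHMT2 and MTHFD2 when amino acids are scarce, had 330 CPM in the control, 170 in the shRBM15#1 line and 158 in the shRBM15#2 line. Its log2 fold change was -1.01 ± 0.22 with an edgeR adjusted p of 0.0592, which did not pass. The core of the response element that ATF4 shares with C/EBP factors, TGATGNAA on either strand, was looked for from 250 bases before to 50 bases after each start site in RefSeq promoters of GRCh38.p14. It occurred in 1270 of 35116 promoters (3.62%), and the form TGATGCAA in 304 (0.866%). Of the 10 genes 7 had a promoter in the table, in 13 windows, and only MTHFD1L held the core. The stretch is shown because it is the sole match, in the same place in 3 windows with start sites at different positions, with the core in capitals, at chr6:150866346-150866375, plus strand, GRCh38.p14.

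MTHFD1L promoter: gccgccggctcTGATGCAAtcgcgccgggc

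A match is a description of letters only, and windows without one say nothing of the factor. PSPH, SHMT2 and ALDH1L2 were not looked at.

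The second question was whether exon bins of the 10 genes were used more or less than the rest of their gene. A bin is a stretch of exon as cut by the gene models. Of 387 bins, 313 had enough reads to be tested. At the study's limits for bins, a fold above 1.2 with an unadjusted p under 0.05, 13 bins passed, which is 4.15% where 1.45% of all 234192 bins tested passed. Of these bins 5 were used more and 8 less, where 0.662% and 0.787% of all bins were. None passed an adjusted p under 0.05 in edgeR, as 0.0205% of all bins did. The 13 bins lay in 6 places, since neighbouring short bins share the same reads, so that the share of bins is not a share of independent events. A limit of 0.05 on unadjusted p-values also admits bins without any difference, and the share is not read as an excess.

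PSPH had 4 adjoining bins used more, over 309 bases of its untranslated first exons (chr7:56118831-56119139, minus strand, GRCh37). The bin of 151 bases nearest the coding exons had 34 reads in the control, 50 in the shRBM15#1 line and 74 in the shRBM15#2 line, which are 1.12%, 3.53% and 4.14% of the reads of PSPH. Raw reads were thus higher in both lines although the whole gene had fewer reads. Relative to the gene the log2 change was 1.78, with an unadjusted p of 1.96e-05 and an adjusted p of 0.0752 in edgeR. The other 3 bins of the stretch had 22, 23 and 45 reads, 25, 30 and 54 reads, and 15, 12 and 32 reads, with relative log2 changes of 1.53, 1.65 and 1.45.

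The gene CCT6A, named here after its values were seen, starts on the other strand 25 bases upstream of the PSPH start, head to head. It encodes a subunit of the chaperonin CCT and had 363 CPM in the control, 419 in the shRBM15#1 line and 449 in the shRBM15#2 line (log2 fold change 0.26 ± 0.22, edgeR adjusted p = 0.575). Bins 031, 032 and 033 of PSPH lie between the stretch and the PSPH start. They had 6, 6 and 5 reads in the control and 5 each in both lines, too few to be tested. The counts carry no strand, and the part of reads from CCT6A in the first bins of PSPH was not tested.

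SHMT2 had 5 adjoining bins used less, over 277 bases of untranslated exon in the 5′ part of the gene (chr12:57624167-57624443, plus strand). The longest, of 186 bases, had 198 reads in the control, 29 in the shRBM15#1 line and 27 in the shRBM15#2 line, which are 0.488%, 0.169% and 0.158% of the reads of SHMT2. The relative log2 change was -1.58 with an unadjusted p of 6.38e-05 and an adjusted p of 0.149 in edgeR, and over the 5 bins it ran from -1.58 to -1.07. In the model of the DEXSeq type fitted with DESeq2, bins 029 and 031 of SHMT2 had adjusted p-values of 0.0272 and 0.000431. The same model gave the strongest PSPH bin an unadjusted p of 3.29e-06 and no adjusted p.

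**Figure D4:**
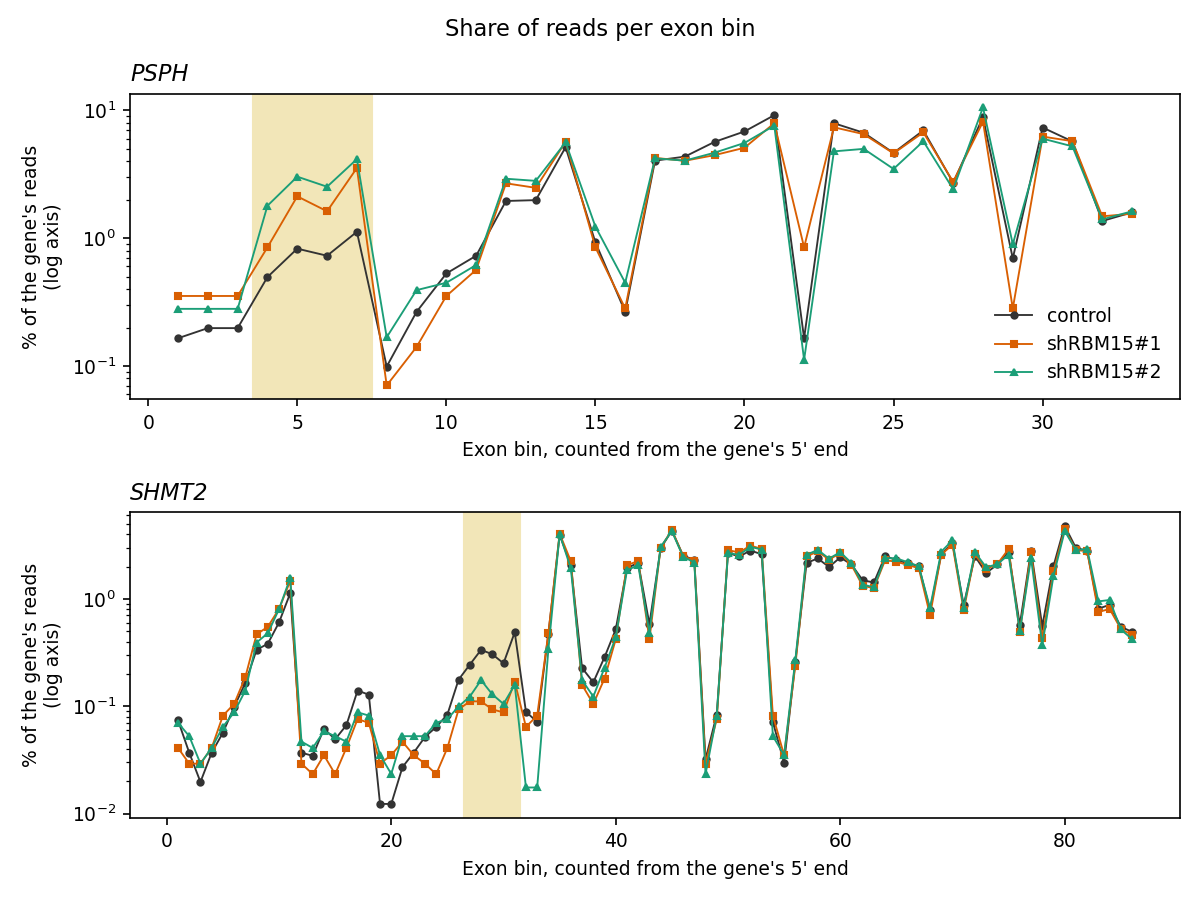
Share of each gene's reads in its exon bins, counted from the 5′ end, for PSPH (top) and SHMT2 (bottom) in the 3 libraries, on a log axis, with bins at 0 reads left out. The shaded bins passed the limits. There the PSPH share is above the control in both knockdown lines, reaching 4.14% against 1.12%, and the SHMT2 share below it, down to 0.158% against 0.488%.

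The remaining 4 places were single bins with few reads, each with an edgeR adjusted p of 1.0. An untranslated bin of SLC19A1 (chr21:46933690-46934628) had 107, 74 and 68 reads, a relative log2 change of -0.83 with an unadjusted p of 0.0394. A 5′ untranslated bin of SHMT1 (chr17:18263728-18263866) had 25, 6 and 10 reads, a relative change of -1.33 with an unadjusted p of 0.023. The second bin of MTHFD1L (chr6:151186691-151187079) had 39, 7 and 8 reads, a relative change of -1.13 with an unadjusted p of 0.0416. A bin of MTHFD1 that is 1 base long (chr14:64894192) had 9, 18 and 14 reads, a relative change of 1.37 with an unadjusted p of 0.0343.

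PHGDH, PSAT1, MTHFD2 and ALDH1L2 had no bin past the limits in edgeR. Their smallest unadjusted edgeR p-values were 0.215 in bin 004 of PHGDH, 0.611 in bin 006 of PSAT1, 0.234 in bin 022 of MTHFD2 and 0.0982 in bin 021 of ALDH1L2. Bin 004 of PHGDH had an unadjusted p of 0.0317 in the model of the DEXSeq type. For PHGDH and ALDH1L2, which fell most as genes, no bin stood out in edgeR from the fall of the gene. Depth limits this, as ALDH1L2 had 393 and 360 reads in the lines.

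RIP-seq asked which RNAs RBM15 contacts. Before its values, the libraries need a remark, since their reads do not divide by the labelled antibody. Over the 1515 sites of the authors' list, the library labelled normal IgG replicate 1 had 28387 reads and that labelled RBM15 antibody replicate 1 had 28845. The library labelled normal IgG replicate 2 had 610915 reads and that labelled RBM15 antibody replicate 2 had 807871. In every listed site (100%) the latter pair was above the former pair, whereas the labels pair the libraries otherwise. Replicates are numbered by the order of the samples. The paper's own list of sites places 2 of the libraries on the side opposite to their antibody label. Whether the split follows depth or exchanged labels was not tested. The list holds selected sites only and the full depth of the libraries is unknown here, so each library is given by its label and no antibody effect was computed.

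Of the 10 genes, 4 had 1 listed site each, and the other 6 had none listed. Of the 9209 genes with a symbol and a mean of at least 10 CPM, 840 had a listed site (9.12%), and of all 24122 genes with a symbol that were tested, 908 had one (3.76%). The difference from these shares was not tested. The sites of SLC19A1 and PSAT1 are in introns, those of SHMT2 and MTHFD1L in 3′UTRs. The middle 30 bases of 3 of the sites are shown on the transcribed strand in GRCh37, because the intronic site differs in sequence from the 3′UTR sites, with the most frequent word of 4 letters of the whole site in capitals.

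PSAT1 intron: attcaccCATCcactCATCcagaCATCcat

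SHMT2 3′UTR: ttccTTTTTTTggtaacaagacttagaagg

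MTHFD1L 3′UTR: gatgaattctgttcacagtggagtatggtg

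The SLC19A1 site (chr21:46949528-46950256, minus strand, 729 bases) had 76 reads in the library labelled normal IgG replicate 1, 4148 in normal IgG replicate 2, 64 in RBM15 antibody replicate 1 and 5676 in RBM15 antibody replicate 2. It ranked 63, 11, 85 and 9 of 1515 in reads, so it was among the strongest sites in each library. Of its 8-base words 74.5% occurred more than once in the site.

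The PSAT1 site (chr9:80934960-80935347, plus strand, 388 bases) had 9, 410, 3 and 586 reads in the same order of libraries. It held CATC 38 times and was 49.5% C, and 62.5% of its 8-base words were repeated. Repeats of this kind were frequent among intronic sites of the list, of which 287 of 752 (38.2%) had more than 50% repeated words, and were found in 0 of 427 sites in 3′UTRs. How reads that fit several repeats were placed was not tested.

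The SHMT2 site (chr12:57628191-57628479, plus strand, 289 bases) had 23 reads in normal IgG replicate 1, 229 in normal IgG replicate 2, 12 in RBM15 antibody replicate 1 and 290 in RBM15 antibody replicate 2. The MTHFD1L site (chr6:151422661-151422941, plus strand, 281 bases) had 6, 116, 4 and 165 reads, and none of its 30 middle bases belongs to its most frequent word, ATTT. In these sites 2.13% and 1.46% of 8-base words were repeated, near the median of 1.66% for sites in 3′UTRs.

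As shares of the reads over all listed sites, the pair of libraries with many reads stood above the other pair for SLC19A1, with 0.268%, 0.679%, 0.222% and 0.703% in the order above, and for PSAT1, with 0.0317%, 0.0671%, 0.0104% and 0.0725%. It did not for SHMT2, with 0.081%, 0.0375%, 0.0416% and 0.0359%, nor for MTHFD1L, with 0.0211%, 0.019%, 0.0139% and 0.0204%. Among all listed sites, 39.9% were separated on this scale. The 4 sites were thus separated in raw reads, like every site of the list, and only the intronic ones as a share.

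**Figure D5:**
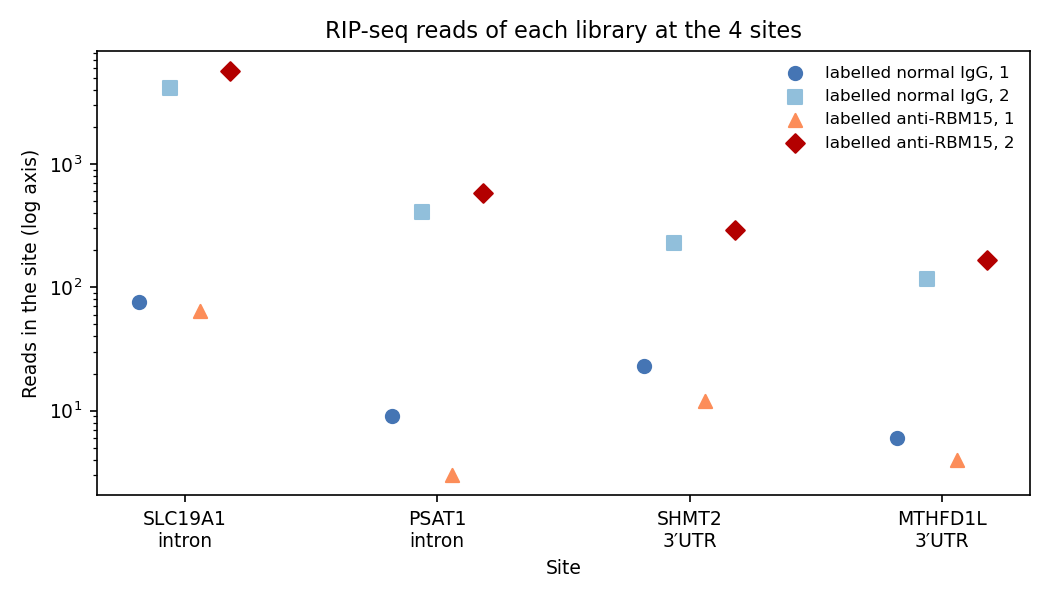
Reads of each of the 4 RIP-seq libraries, named by their labels, in the 4 sites, on a log axis, 1 point per library. The libraries labelled replicate 2 of either antibody lie above those labelled replicate 1 at each site, and SLC19A1 has the most reads in every library, up to 5676.

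Exon usage next to the sites was looked at in the RNA-seq. The bins that flank the SLC19A1 site, 427 and 3655 bases away, had relative log2 changes of -0.01 and 0.07 with unadjusted p-values of 0.978 and 0.847. Those that flank the PSAT1 site, 2239 and 7619 bases away, had 0.01 and 0.06 with unadjusted p-values of 0.988 and 0.886. The bins that overlap the SHMT2 and MTHFD1L sites had relative log2 changes from -0.12 to 0.08, with p-values of 0.658 or more. No bin next to or within a site thus passed the limits, and the bins of SHMT2 that did were not among those that overlap its site.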

How the data were processed

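Samples were grouped by their labels. Unstranded RNA-seq read pairs were mapped by the authors with STAR on GRCh37, and the deposited files give raw counts for each exon bin cut from Ensembl GRCh37.70. Reads of the RIP-seq were trimmed (Trimmomatic) and mapped (STAR, hg19) by the authors, who found peaks in the summed coverage, tested them with DESeq and deposited raw counts for 1515 sites. The submitters' processing notes also name HTSeq 0.6.0, in a role they do not give. The deposited tables also hold the authors' fold changes and p-values, which were not used. No column of a sample outside the series was found.

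Bin counts were summed per gene and CPM were computed with TMM factors in edgeR 4.0.16 (R 4.3.3). Reads that name no gene stayed out of library sizes. CPM per kb divides by the summed bin width, so comparisons between genes also depend on how their exons are cut into bins. The 24887 genes that reached 30 reads over the libraries were fitted with the quasi-likelihood test, and p-values were adjusted by Benjamini-Hochberg over all of them. The residual spread is that between the knockdown lines, moderated in edgeR by the spread pooled over all genes, or over all bins for exon usage. What sets this control culture apart from other control cultures cannot be told apart from the knockdown. The same holds for carrying an shRNA and for puromycin selection, which are stated for the knockdown lines and not for the control. Exon usage was tested with diffSpliceDGE over the 234192 bins that reached 30 reads. Both fits were tested on simulated data. Of genes given a log2 fold of 1 there, 0% were called at either limit. Of those given 1.5, 6.82% were called at 0.01 and 18.2% at 0.05. Of those given 2, 29.5% and 47.7% were called. A gene that did not pass is therefore not shown to be unchanged. DESeq2 1.42.0 served for alternatives. Symbols came from GENCODE for GRCh37, by identifier for 54481 of 62238 genes, and gene positions are the span of the counted bins. Site sequences were read from GRCh37 and promoters from RefSeq (GRCh38.p14). Marker and pathway lists were written by hand. The genes and lists were chosen with earlier results of these data known. Named are the 10 genes, RBM15, ATF4, list genes at an adjusted p under 0.05 and 9 fixed neighbours, and of the bins those past the limits and the one with the smallest p per gene. Some items that this rule or the marker list would name, and 1 site sequence, are not reported here.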

Additional observations from a re-analysis of the deposited data

How the results depend on the processing

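The direction of each of the 10 genes was the same under size factors, without the filter on low counts, in DESeq2 and with either knockdown line alone. The number called lower at an adjusted p under 0.01 was 2 in the fit reported, 3 with size factors, 5 without the filter and 5 in DESeq2, and 5 passed the limit of 0.05. The calls over all genes at 0.01 numbered 86, 191, 801 and 533 in the same order. PSAT1 passed 0.01 in all 3 alternatives (adjusted p from 2.82e-07 to 0.00507), and SHMT2 and MTHFD1L passed without the filter and in DESeq2. PSPH and MTHFD2 stayed above 0.01 in each (adjusted p of 0.0473 to 0.092 and 0.0389 to 0.0789). The median log2 fold change of the 10 genes was -1.17 without the filter, where the median shift over genes tested in both fits was -0.13, and ran from -1.01 to -0.93 with 1 line left out. Of the 42 pathway genes, 4 were called without the filter, where their median was -0.22, and leaving out a line gave medians from -0.15 to 0.0. Of the 13 exon bins, 0 remained with a minimum of 300 reads per bin, for which all of them had too few reads. In edgeR 0 passed an adjusted p of 0.05. With a minimum of 1 read 17 bins passed the limits, and in the model of the DEXSeq type 16 did. In that model bins 029 and 031 of SHMT2 had adjusted p-values of 0.0272 and 0.000431. In raw reads the RIP-seq libraries were separated in the 4 sites as in all 1515 of the selected list, so this says nothing particular of the 4. As shares they were separated in 2. Of 45 alternatives for single genes that gave an adjusted p, 35 kept their direction and side of the threshold and 10 passed it where the fit reported had not. With 1 line left out there was 1 library on each side, so only fold changes were computed, and 56 of 56 such values for single genes and bins kept their direction. No paired analysis was possible because the control has 1 library, so that the groups share fewer than 2 replicate numbers, and the RIP-seq values come from no test. Depth limits the exon bins, as none of the 13 had more than 198 reads in the control.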

Other observations

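Other genes of the glycine and folate list are named here after their values were seen. AMT, DMGDH and SFXN3 lay apart from the control in both lines without passing the threshold. AMT, the aminomethyltransferase of the glycine cleavage system, had 361 reads in the control, 127 in the shRBM15#1 line and 91 in the shRBM15#2 line (log2 fold change -1.67 ± 0.41, edgeR adjusted p = 0.0896). DMGDH, which demethylates dimethylglycine in mitochondria, had 272, 114 and 138 reads (-1.08 ± 0.37, edgeR adjusted p = 0.181). SFXN3, of the sideroflexin family of mitochondrial carriers, had 125, 290 and 328 reads (1.34 ± 0.38, edgeR adjusted p = 0.127). SFXN1, the mitochondrial serine carrier of that family, had 139, 163 and 150 CPM (0.17 ± 0.22, edgeR adjusted p = 0.725), a change smaller than its SE.

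In the list of RIP-seq sites, 2 of the other pathway genes appeared, with sites in 3′UTRs. DLD, the dihydrolipoamide dehydrogenase shared by the glycine cleavage system, had 24 and 448 reads in the libraries labelled normal IgG replicates 1 and 2, and 32 and 709 in those labelled RBM15 antibody replicates 1 and 2. AHCY, which hydrolyses S-adenosylhomocysteine, had 2 sites, with 10, 265, 8 and 379 reads and with 12, 285, 25 and 405 reads in the same order. The levels of DLD and AHCY in the RNA-seq had log2 fold changes of -0.16 and 0.0.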
